A study of Danio rerio with 6 samples.

Results

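The normal liver of the zebrafish larva, *Danio rerio*, was described at 7 days post fertilization (dpf) from the 3 wild-type (WT) libraries among the 6 liver samples of a study of the KEAP1–NRF2 pathway. The 3 WT samples were chosen by their labels, and the 3 samples from cr*keap1a/b* larvae, which are crispants with mosaic knockout of the Keap1 paralogs *keap1a* and *keap1b*, were left out. Each WT sample was RNA from a pool of 15 dissected livers, and it is not stated whether the WT embryos received a control injection. The samples are named WT replicates 1, 2 and 3 after their titles. They carry a second code in the labels, WT-2-a, WT-1-a and WT-2-b in that order, and what its number and letter stand for is not stated. No count of the other group enters a level or share given here, and no test between groups was made. The rows of the table were those kept for all 6 samples. Values describe WT larval liver as dissected, with transcripts of other tissues in it. Spread over the 3 pools is given as SD, and it is not stated whether the pools came from separate clutches.

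Libraries were made with a 3′ kit, which yields reads near the polyadenylated end of a transcript, so that a gene's count was compared with that of another gene without division by length. Levels are CPM, a gene's count scaled to a common library size, with the size taken as the sum over rows with a gene ID. The table held 6637 rows, of which 6502 had an ID and are the genes described here, and 6426 of these were named by symbol. WT replicate 1 held 13674519 counts in total, WT replicate 2 held 10846582 and WT replicate 3 held 16666610. These totals are above the sequencing depth given in the study's methods, and whether runs were merged is not stated. On the total of all rows, every row of the table reached at least 0.512 CPM in 3 of the 6 liver samples. Genes that did not are not analysed here, while a gene low or at 0 in WT could be kept through the other samples. A count of 3 corresponded to 0.254, 0.316 and 0.20 CPM in the 3 pools, and since no molecular identifiers are mentioned, such floors cover counting error only.

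The liver is the main metabolic and secretory organ of the larva. Hepatocytes, its principal cells, release most plasma proteins, including lipid-carrying apolipoproteins, clotting factors, complement and carriers of metals and vitamins, and they break down amino acids, store and release sugars, and detoxify foreign compounds. Bile duct cells, stellate cells, endothelium and resident macrophages make up the rest of the organ, and in the larva the exocrine pancreas, which makes digestive enzymes, lies close to it.

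WT replicate 3 stood apart from the other pools. In it 53.2% of genes were at 0 counts, against 8.29% in WT replicate 1 and 13.1% in WT replicate 2, although its total was the highest. The genes that were above 0 there had a median of 806 counts, against 168 and 145. TMM scaling factors, which compare pools over genes they share, were 0.886, 0.933 and 1.21 in WT replicates 1, 2 and 3. CPM of shared genes thus tended to run higher in WT replicate 3, which limits readings of genes as highest there. Levels and shares are without this scaling unless stated. Values are given for each pool or as a mean over the 3 pools, and a mean that WT replicate 3 moved by a wide margin is followed by its values in the pools. The part of its code letter in this difference was not tested, since it is the only WT pool with the letter b.

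The label was examined against defining genes of hepatocytes. Of 35 listed hepatocyte genes, 33 were in the table and 32 were above 0 in all 3 pools, the exception being *hpdb* at 5.84, 0 and 0 CPM. Together the list held 24.2%, 27.0% and 23.6% of counts in WT replicates 1, 2 and 3. The range between pools was small beside these shares, of which *apoa1b* was the largest single part. *tdo2a* was at 48.9, 84.3 and 0.133 CPM, and its 2 counts in WT replicate 3 were under the floor of 3 counts. The listed genes *apoh* and *hp* were not in the table. The list was written with earlier results of these data known, so its sum is a description.

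Among genes with an ID, *apoa1b* took more of the counts than any other in all 3 pools. A row without an ID, described near the end, held more than *apoa1b* in WT replicates 1 and 2. *apoa1b* (Entrez 100101640) encodes a form of apolipoprotein A-I, the main protein of high-density lipoprotein. Its level was 103708 CPM in WT replicate 1, 119577 CPM in WT replicate 2 and 118043 CPM in WT replicate 3. The pools were thus close together, and the gene held 11.4% ± 0.875 (SD, n = 3) of all counts in genes with an ID. Its paralog *apoa1a* was at 681, 673 and 575 CPM, and reads shared by close paralogs could have been divided by the counting.

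Counts were concentrated in few genes. The 10 most abundant genes held 28.6% ± 2.67 (SD, n = 3) of counts, the 25 most abundant 40.9% ± 2.2 and the 100 most abundant 65.3% ± 1.2. Ordered within each pool, 47, 38 and 48 genes were enough to reach 50% of the counts in WT replicates 1, 2 and 3. The number needed for 90% was also close, at 662, 652 and 696. For 99% it was 3722 and 3594 genes in WT replicates 1 and 2 but 2031 in WT replicate 3, so the curves of level against rank lay together over the abundant ranks and parted at the rare ones. Such numbers do not say whether the same genes held those ranks, and single abundant genes did differ between pools.

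**Figure D1:**
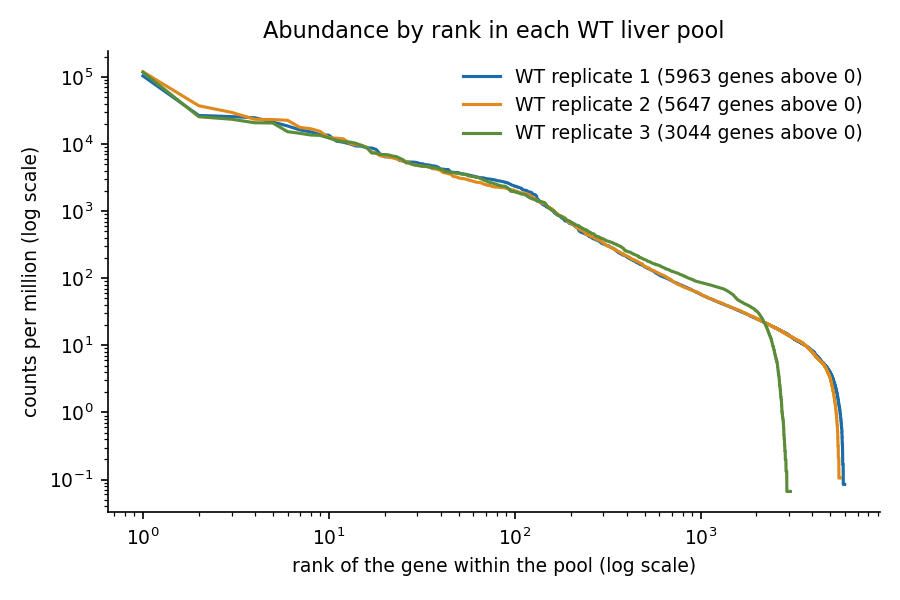
Level of each gene (CPM, log scale) against its rank within the pool (log scale), with 1 line for each of the 3 WT pools. The lines lie together at the top, where *apoa1b* reached 103708 to 119577 CPM, and the line of WT replicate 3 drops away after 3044 genes above 0, against 5963 and 5647 in WT replicates 1 and 2.

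The genes ranked after *apoa1b* included enzymes and carriers of hepatocytes. *ucp1*, a carrier of the inner mitochondrial membrane that was first known from brown fat of mammals, was at 25656, 29655 and 25525 CPM. *fabp10a*, the liver-type fatty acid binding protein of fish, was at 24646, 23182 and 20765 CPM. Every pool of *ucp1* lay above every pool of *fabp10a*, by a narrow margin.

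The next genes were likewise of hepatic function. *hpda*, which encodes the dioxygenase of the second step of tyrosine breakdown, was at 18609, 23356 and 23437 CPM. *apoa2*, a further apolipoprotein of high-density lipoprotein, was at 21233, 22589 and 10258 CPM. *fetub*, which encodes the secreted protease inhibitor fetuin-B, was at 15182, 16912 and 15297 CPM. In *apoa2* WT replicate 3 was the lowest pool and less than the other pools by more than they differed from each other, whereas it was not the lowest pool for *hpda* or *fetub*.

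Genes of the mitochondrial genome and of translation followed. The cytochrome oxidase subunits *COX3*, *COX1* and *COX2* had mean levels of 13294, 11597 and 11574 CPM, *ATP6* of the ATP synthase 6785 CPM and *CYTB* of complex III 6757 CPM. The elongation factors *eef1a1l1* and *eef2b* had means of 11763 and 8831 CPM, and the ribosomal protein genes *rps2*, *rplp1* and *rps6* of 7276, 6081 and 5937 CPM. *gapdh* and *pklr*, the glyceraldehyde-3-phosphate dehydrogenase and the pyruvate kinase of liver, were at 9649 ± 2501 and 9291 ± 473 CPM (SD, n = 3 each). *bhmt*, which returns a methyl group from betaine to homocysteine, was at 6963, 7282 and 3779 CPM.

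Secreted proteins of other kinds were also among the 25 highest. *rbp4*, the plasma carrier of retinol, was at 16258, 17704 and 5880 CPM and was the gene among them with the second largest relative spread. *igfbp1a* and *igfbp1b*, which encode binding proteins of insulin-like growth factors, were at 9373, 8851 and 13630 CPM and at 4843, 4298 and 12318 CPM. Both were highest in WT replicate 3, and for *igfbp1b* that pool was outside the range of the other pools by a wide margin. *prss59.2* and *prss1* are pancreatic trypsin genes, at 9285, 6383 and 10824 CPM and at 8740, 5503 and 7010 CPM.

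**Figure D2:**
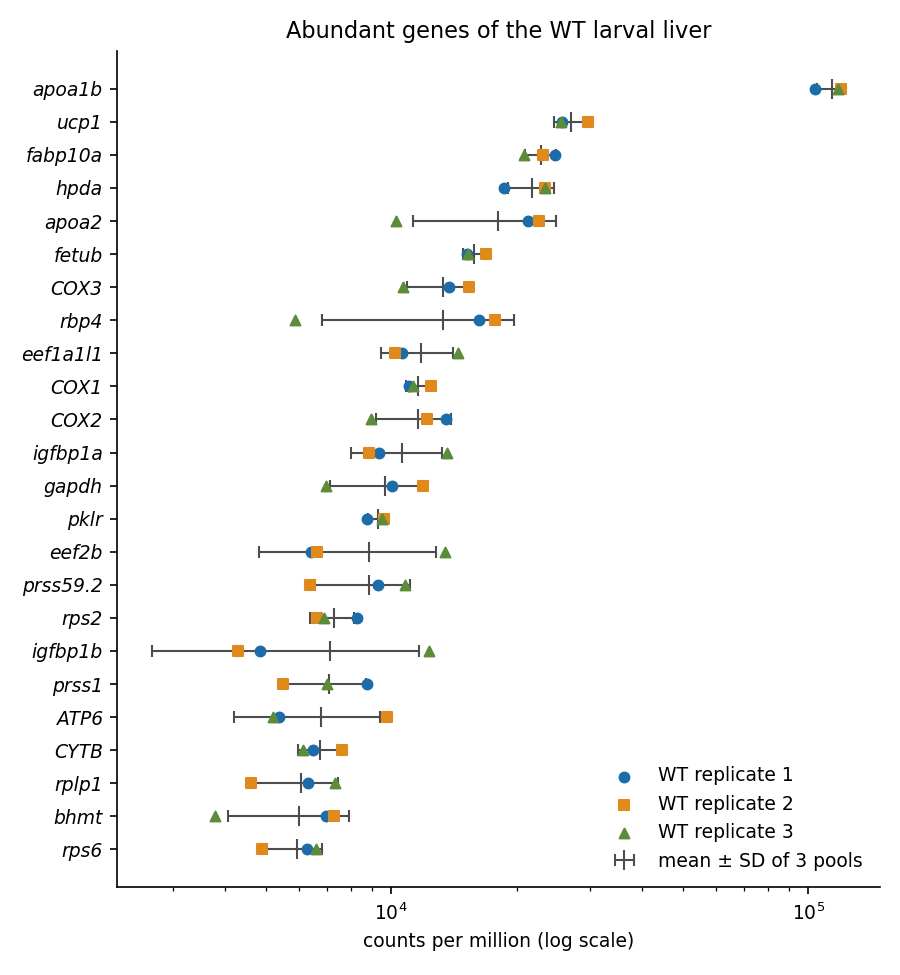
Level (CPM, log scale) of genes among the 25 with the highest mean, in descending order, with 1 point for each WT pool and a bar for the mean ± SD of the 3 pools. *apoa1b* stands clear of all others, while *rbp4*, *apoa2* and *bhmt* were lowest in WT replicate 3 and *igfbp1b* and *eef2b* highest there.

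Genes classed as plasma proteins held a large part of the counts. Genes were sorted by symbol into 30 classes of function, with 4536 genes left unclassified. The 122 genes for apolipoproteins, other secreted plasma proteins, complement with acute phase proteins, and coagulation held 23.5%, 26.2% and 25.3% of counts in WT replicates 1, 2 and 3, and 19 of them were among the 100 most abundant genes. Apolipoproteins alone held 14.3%, 15.9% and 14.1%, of which *apoa1b* made up 76.9% on average. With *rbp4* added, which was classed elsewhere, the whole group held 25.2%, 28.0% and 25.9%. The group also holds genes such as *apoa4b.1* and *chia.2*, which are listed as intestinal markers as well. The share of plasma proteins was thus similar in the 3 pools, and the pool with many genes at 0 lay between the other pools.

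Within the apolipoproteins, *apoc1*, which is found on several lipoproteins, was at 5593, 4794 and 4442 CPM and *apom*, a carrier of sphingosine-1-phosphate, at 5099, 5577 and 3284 CPM. *apobb.1*, a form of apolipoprotein B, the structural protein of very-low-density lipoprotein, was at 1474, 1819 and 531 CPM. *apoeb*, a form of apolipoprotein E, ran the other way, at 140, 43.8 and 872 CPM. Of the 15 genes of this class, 13 were above 0 in all 3 pools.

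The other secreted plasma proteins held 7.07% ± 0.686 (SD, n = 3) over 47 genes. After *fetub* and the *igfbp1* paralogs, *serpina1l*, of the family of alpha-1-antitrypsin, was at 4714, 6251 and 4669 CPM. *tfa*, which encodes the iron carrier transferrin, had 4162, 4530 and 4597 CPM, one of the narrowest ranges among abundant genes. *ttr*, the thyroid hormone carrier transthyretin, was at 1974 ± 425 CPM and *cp*, the copper carrier ceruloplasmin, at 683 ± 69.4 CPM (SD, n = 3 each).

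Complement and acute phase genes held 1.81%, 1.86% and 1.93%, a difference between pools smaller than that of any of the larger classes. *crp2* and *crp3*, of the C-reactive protein family, were at 4204 ± 649 and 2101 ± 214 CPM, *c9* of the membrane attack complex at 2706 ± 549 CPM and *c3a.1*, a C3 gene, at 2562 ± 241 CPM (SD, n = 3 each). *hamp*, which encodes the iron hormone hepcidin, was at 1340, 1300 and 768 CPM. Of 38 genes, 30 were above 0 in all 3 pools.

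Coagulation and fibrinolysis genes held 1.1%, 1.27% and 1.48% over 22 genes. The fibrinogen chain genes *fgb* and *fga* were at 2281, 2578 and 3610 CPM and at 2030, 2292 and 3361 CPM, and the third chain gene *fgg* was at 318, 460 and 337 CPM. *plg*, the precursor of the clot-dissolving plasmin, was at 2244 ± 285 CPM and *serpina10b*, of the protein Z-dependent inhibitor family, at 1186 ± 125 CPM (SD, n = 3 each). *f2*, prothrombin, was at 662, 801 and 853 CPM. The chains that assemble into fibrinogen were thus not counted at 1 level, with *fgg* below the lowest values of *fga* and *fgb* in each pool.

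Cytosolic ribosomal proteins were the largest class, with 21.4%, 16.1% and 17.4% of counts over 72 genes. All but 1 of these genes were above 0 in all 3 pools, 62 had a mean of at least 1000 CPM and 42 were among the 100 most abundant genes. No single gene led the class, since *rps2*, the highest, made up 3.97% of it. *rplp0*, of the ribosomal stalk, was at 5502, 4228 and 6536 CPM. Translation factors and tRNA synthetases held a further 3.18%, 3.22% and 4.74%, and their excess in WT replicate 3 included *eef2b*, at 6415, 6625 and 13452 CPM. *tpt1* and *eef1g*, also counted there, were at 2297 ± 128 and 1290 ± 151 CPM (SD, n = 3 each).

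The 13 protein genes of the mitochondrial genome were all above 0 in all 3 pools and held 6.23%, 7.34% and 6.10% of counts. The 75 nuclear genes of oxidative phosphorylation held 1.37%, 1.26% and 1.37%. Of the nuclear genes *atp5f1b* and *atp5mc3b*, of the ATP synthase, were highest, at 1328 ± 136 and 1233.5 ± 203 CPM (SD, n = 3 each), followed by *atp5fa1* at 460, 580 and 1105 CPM and *cox5ba* at 387, 647 and 465 CPM. Mitochondrial carriers held 3.47%, 3.85% and 3.66%, of which *ucp1* made up 73.7%. Next among the carriers were *slc25a5*, an exchanger of ADP and ATP, at 4030 ± 271 CPM, the phosphate carrier *slc25a3b* at 1682 ± 396 CPM and the outer membrane channel *vdac2* at 1076, 1372 and 1986 CPM. Genes of the mitochondrial ribosome were low, with 0.0927% over 56 genes and none with a mean of 100 CPM. The highest means were those of *mrps34*, at 27.2, 10.3 and 123.4 CPM, *mrpl32*, at 54.4, 105 and 0 CPM, *mrps35*, at 24.2, 27.0 and 85.0 CPM, and *mrpl2*, at 23.9, 32.1 and 70.7 CPM, so that WT replicate 3 set this order.

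Sugar metabolism held 6.46%, 8.11% and 5.54% of counts over 68 genes of glycolysis, gluconeogenesis, glycogen, the pentose phosphate pathway and the TCA cycle. After *gapdh* and *pklr*, *mdh1aa*, a malate dehydrogenase, was at 5082, 6027 and 3823 CPM. *pck1*, which encodes the phosphoenolpyruvate carboxykinase that commits carbon to gluconeogenesis, was at 1947, 2241 and 1802 CPM. The class was lowest in WT replicate 3, as were *gapdh* and *mdh1aa*, whereas *pklr* was at 8747, 9609 and 9517 CPM and had the lowest coefficient of variation (SD divided by the mean) of the 100 most abundant genes, 0.051.

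Amino acid, urate and one-carbon metabolism held 5.77%, 6.55% and 6.21% over 102 genes. After *hpda* and *bhmt*, *ahcy*, which splits S-adenosylhomocysteine, was at 3366, 3599 and 4501 CPM. *pnp5a*, a purine nucleoside phosphorylase, was at 2422, 2667 and 4643 CPM, and *agxtb*, an aminotransferase that removes glyoxylate, at 3058, 2886 and 2639 CPM. *uox*, the urate oxidase that fish keep and humans lack, was at 2835, 2489 and 1690 CPM, and *pah*, the phenylalanine hydroxylase, at 639, 940 and 654 CPM. Of the class, 73 genes were above 0 in all 3 pools.

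Fatty acid and retinol binding proteins held 4.23%, 4.25% and 2.76% over 10 genes, and *fabp10a* and *rbp4* carried nearly all of it. *scp2a*, a sterol carrier, and *fabp3* followed, at 712, 849 and 341 CPM and at 447, 575 and 369 CPM. The lower share in WT replicate 3 was mostly that of *rbp4*, which was 10378.5 CPM lower there than in WT replicate 1, while *fabp10a* was 3880.3 CPM lower. Genes of lipid oxidation and of lipid and sterol synthesis held far less, 0.475%, 0.537% and 0.448% over 88 genes. Their highest members were *slc27a2a*, which activates very long chain fatty acids, at 839, 747 and 954 CPM, *acat1* of ketone metabolism at 465, 806 and 548 CPM, *lpin2*, a phosphatidate phosphatase, at 341, 402 and 570 CPM and *dgat2*, which makes triglyceride, at 339, 370 and 177 CPM.

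**Figure D3:**
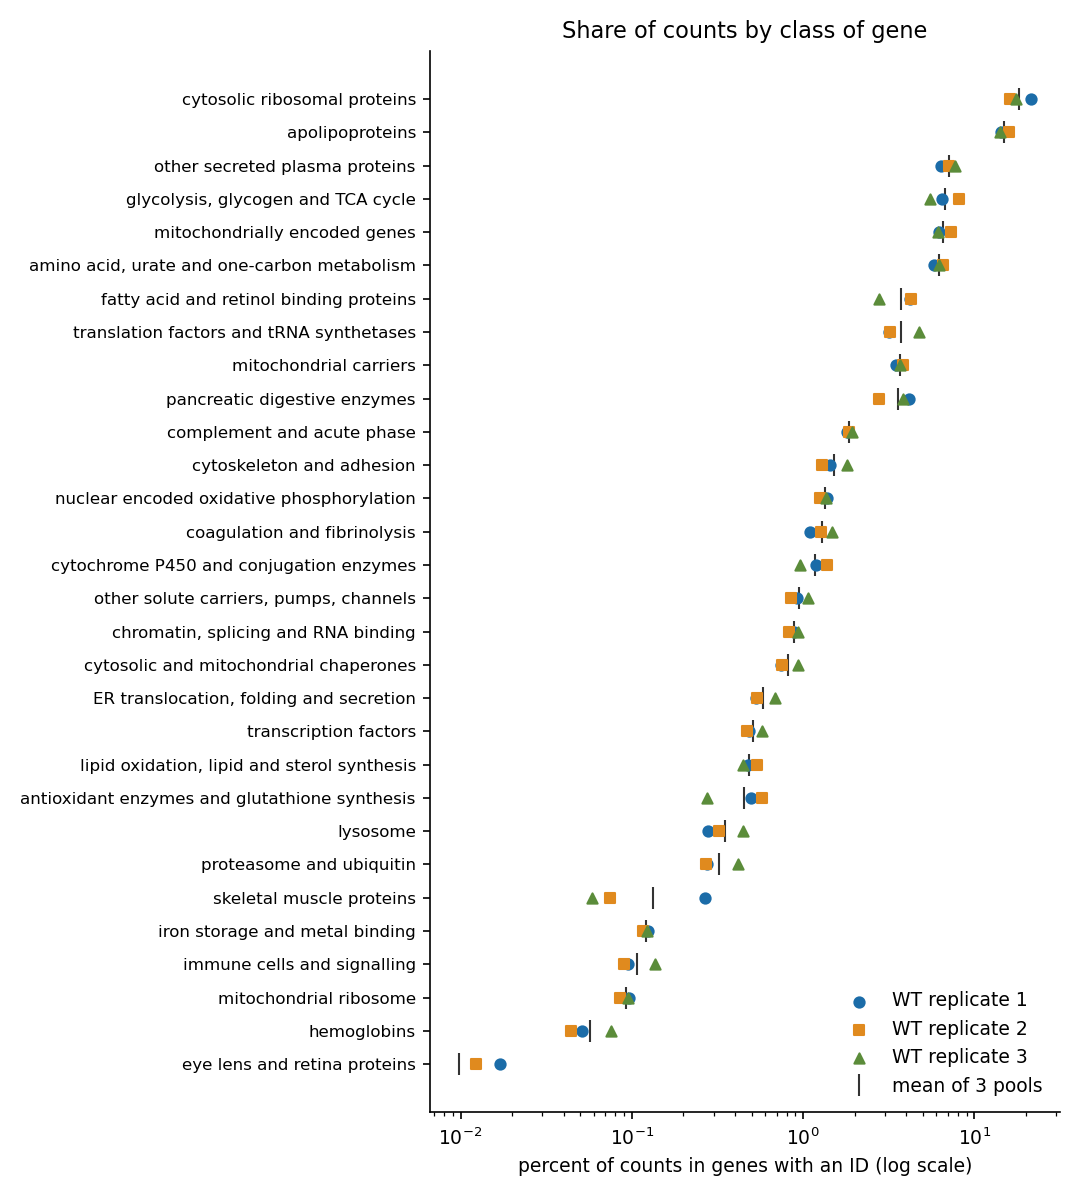
Share of counts in genes with an ID (percent, log scale) for each of the 30 classes, with 1 point for each WT pool and a line for the mean. Ribosomal proteins (18.3%) and apolipoproteins (14.8%) were highest, skeletal muscle proteins were spread most among classes present in all pools, from 0.0585% to 0.268%, and the point of WT replicate 3 is missing for eye lens and retina proteins, which were at 0 there.

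Enzymes of detoxification held 1.19%, 1.39% and 0.953% over 108 cytochrome P450 and conjugation genes. *cyp3a65*, a P450 of the family that oxidises many drugs, was at 2096, 2774 and 1644 CPM, and *cyp24a1*, which inactivates vitamin D, at 1778, 2072 and 2356 CPM. *cyp7a1*, the rate-limiting enzyme of bile acid synthesis, was at 773, 874 and 189 CPM. *nqo1*, a quinone reductase, was at 882, 681 and 306 CPM. WT replicate 3 was the lowest pool for all of these but *cyp24a1*.

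Antioxidant enzymes, as a class, were also lowest in WT replicate 3. They held 0.496%, 0.576% and 0.274% over 38 genes, and *gpx4a*, a glutathione peroxidase that acts on lipid peroxides, was at 1753, 1870 and 542 CPM. *prdx2*, a peroxiredoxin, at 934, 1155 and 854 CPM, and the thioredoxin reductase gene *txnrd3*, at 300, 299 and 388 CPM, differed less. Without WT replicate 3 the share of the class was 0.536%.

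Membrane transport, outside mitochondria, held 0.920%, 0.846% and 1.07% over 168 genes. *slc38a4*, an amino acid transporter, was at 1912, 1169 and 1780 CPM and *slco1d1*, an organic anion transporter, at 1207, 1279 and 1011 CPM. *slc51a*, a subunit of the basolateral bile acid exporter, was at 371, 370 and 516 CPM, and *abcb11b*, of the bile salt export pump family, at 248, 321 and 444 CPM. *atp1b1a*, a subunit of the sodium pump, was at 329, 233 and 734 CPM.

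Genes of the general cell machinery held shares of the same order. Cytoskeleton and adhesion held 1.44%, 1.29% and 1.80%, led by *fn1b*, a fibronectin, at 3020, 3090 and 4176 CPM, *tmsb4x*, which binds actin monomers, at 2059, 1870 and 2897 CPM, the annexin *anxa4* at 1210 ± 153 CPM and the actin gene *actb2* at 1131 ± 64.8 CPM (SD, n = 3 each). Chromatin, splicing and RNA binding held 0.880%, with *ddx21*, *cirbpb*, *ybx1* and *h3f3d* highest, and chaperones 0.811%, with *hsp90ab1* at 3014, 2860 and 4303 CPM before *ppiaa*, *hspe1* and *cct6a*. ER translocation, folding and secretion held 0.584%, with *ssr2*, of the translocon-associated complex, at 610, 714 and 957 CPM and *xbp1*, which encodes a regulator of the unfolded protein response, at 425, 634 and 234 CPM, before *ssr1* and *sec61a1a*.

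The lysosome held 0.279%, 0.324% and 0.448% over 63 genes, of which 29 were above 0 in all 3 pools. *ctsla*, a cathepsin L, was at 412, 514 and 833 CPM, *psap*, the precursor of the saposins, at 279, 335 and 690 CPM, *gusb*, the beta-glucuronidase, at 219, 234 and 338 CPM and *ctsba*, a cathepsin B, at 221, 248 and 290 CPM. Proteasome and ubiquitin genes held 0.274%, 0.272% and 0.418% over 76 genes, with *ubb* at 324, 294 and 739 CPM, *ubc* at 270, 397 and 581 CPM, the autophagy receptor *sqstm1* at 233, 144 and 416 CPM and *psmc2*, of the proteasome's ATPase ring, at 87.2, 69.6 and 303 CPM. All of these 8 genes were highest in WT replicate 3, but they were picked by a mean that includes that pool. Of the 100 most abundant genes 38 were highest there. At 0 in that pool were 47.6% of the lysosome genes and 36.8% of the proteasome and ubiquitin genes, against 53.2% of all genes. Iron storage and metal binding held 0.124%, 0.116% and 0.123% over 11 genes, led by the ferritin gene *fthl27* at 583, 439 and 710 CPM, with *alas1*, the first enzyme of heme synthesis, and *fth1a*, a ferritin heavy chain, next and *steap4* at 42.5, 98.9 and 0 CPM.

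Transcription factors held 0.484%, 0.473% and 0.576% over 165 genes, and 67 were above 0 in all 3 pools. *id3* was highest, at 324, 291 and 362 CPM, followed by the nuclear receptor gene *nr5a5* at 231, 261 and 457 CPM. Of 32 listed regulators of liver identity or metabolism, 22 were in the table and 13 were above 0 in all 3 pools. *cebpd* was at 455, 216 and 261 CPM and *cebpb* at 191, 179 and 478 CPM, both of the C/EBP family. *prox1a*, needed for the growth of the liver bud in mammals, was at 109, 117 and 105 CPM and *foxa2*, a pioneer factor of endoderm, at 33.9, 37.2 and 38.5 CPM, so that these factors were low but close between pools. *srebf1*, a regulator of lipid synthesis, was at 59.06, 87.0 and 244 CPM, *klf15* at 184, 48.7 and 63.5 CPM, *foxa1* at 68.7, 35.2 and 79.3 CPM and *nr5a2* at 79.8, 60.9 and 41.3 CPM. *srebf2* was at 18.9, 14.3 and 75.8 CPM, so that its mean of 36.3 CPM was 16.6 CPM without WT replicate 3. *rxrba* was at 44.3, 30.98 and 29.3 CPM, *foxa3* at 14.8, 35.6 and 40.6 CPM and *nr1h3* at 34.01, 17.4 and 4.66 CPM. *hnf4g* was at 8.04, 20.8 and 0.333 CPM, and *rxraa*, *pparab*, *hnf1bb*, *hnf4b*, *pparaa*, *esr2b*, *nr0b2a* and *cebpa* were among those at 0 in at least 1 pool.

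The Nrf2 pathway was examined because the study addresses it. In unstressed cells Keap1 holds the transcription factor Nrf2 at a low level, and Nrf2, when released, drives genes of glutathione, NADPH and iron metabolism. Of 35 listed genes 21 were in the table, 14 were above 0 in all 3 pools, and the list summed to 2597, 2272 and 2246 CPM. The factor itself, *nfe2l2a*, was at 64.8, 56.4 and 68.9 CPM. Its repressor genes were lower and less even, with *keap1a* at 31.7, 0 and 25.2 CPM and *keap1b* at 26.6, 27.5 and 0.665 CPM. The repressor gene *bach1b* was at 12.7, 29.2 and 74.2 CPM and *bach1a* at 0, 3.27 and 0 CPM.

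The targets of Nrf2 covered a wide range of levels in WT liver. After *nqo1* and *txnrd3*, *sqstm1*, *alas1*, *tktb* of the pentose phosphate pathway, *gstp1.2*, a pi-class glutathione transferase, and *fth1a* had means between 208 and 264 CPM. Of these *gstp1.2*, at 307, 213 and 107 CPM, and *fth1a*, at 240, 242 and 141 CPM, were lowest in WT replicate 3. *sqstm1*, *alas1* and *tktb* were highest there. *gclc*, a subunit of the enzyme that starts glutathione synthesis, was at 12.9, 13.9 and 84.0 CPM and the glutathione reductase gene *gsr* at 3.05, 23.2 and 54.2 CPM, so that their means of 36.9 and 26.8 CPM were 13.4 and 13.1 CPM without WT replicate 3. The heme oxygenase gene *hmox1a*, at 39.2, 45.1 and 14.8 CPM, and *prdx1*, at 25.1, 20.97 and 10.6 CPM, were lowest in that pool, and *gclm* was at 12.3, 14.3 and 0 CPM. At the low end *pgd*, *srxn1* and *gstp1.1* had means of 0.485, 0.211 and 0.0633 CPM, and *gstp1.1*, with 1, 1 and 0 counts, was under the floor of 3 counts in each pool. None of these genes reached 0.512 CPM in more than 1 WT pool, so their rows were kept through other samples as well. The low end of the range thus depended on levels outside WT. *tfe3a*, a member of the MiT/TFE family that regulates lysosomal genes, was at 0 in all 3 WT pools and entered the table through other samples. The division of reads between *gstp1.2* and *gstp1.1*, which are close paralogs, is uncertain.

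Transcripts of the exocrine pancreas were abundant in the dissected livers. Pancreatic digestive enzymes held 4.16%, 2.79% and 3.84% of counts over 25 genes, 22 of which were above 0 in all 3 pools, and 7 were among the 100 most abundant genes. After the trypsins *prss59.2* and *prss1*, the elastase *cela1.2* was at 5404, 3697 and 5040 CPM and *cpa5*, a carboxypeptidase, at 3389, 1866 and 2721 CPM. *ela3l*, *prss59.1*, *ctrl* and *amy2a* had means between 1669.6 and 2417 CPM. Most of these genes were lowest in WT replicate 2, whereas *prss59.1*, with 2991, 2266 and 1791 CPM, was lowest in WT replicate 3. The list of 31 pancreas markers, 18 of them in the table, ranged from 2.73% to 4.05%. In pooled tissue, fewer cells of a type and less RNA per cell cannot be told apart, and how pancreas came to be in the samples was not tested.

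Markers of other cell types were low or at 0. Of 14 lymphocyte genes none was in the table. Of 19 macrophage genes 7 were in it, with a sum of 62.7 to 83.8 CPM, led by *lygl1* at 30.5, 25.2 and 32.3 CPM. In the table *spi1b*, a defining factor of myeloid cells, was at 0, 0 and 48.0 CPM and *marco* at 7.70, 0 and 0 CPM. Of 11 genes listed for neutrophils 4 were in the table, and nearly all of their sum, 1892 to 3448 CPM, was *cpa5*. That gene was also counted among the pancreatic enzymes, so the sum cannot be read as that of neutrophils. The other listed genes in the table, *cfl1l*, *mmp9* and *srgn*, had means of 19.4, 5.14 and 3.81 CPM, and *mpx*, *lyz* and *npsn* were not in it. The immune class as a whole held 0.107% over 56 genes, led by *nfkbiab* at 62.1, 27.3 and 437 CPM, *b2ml* at 111, 195 and 125 CPM, *socs2* and *ifi27.8*.

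Genes of supporting cells of the liver that were in the table were mostly at low levels too. The stellate list, with 7 of 15 genes in the table, summed to 88.7 to 141 CPM, led by *steap4*, *acta2* and *col1a2*, and *hand2*, a defining gene of zebrafish stellate cells, was at 4.23, 7.06 and 0 CPM. The endothelial list, with 6 of 17, summed to 31.6 to 95.2 CPM, with *egfl7* at 4.40, 12.5 and 76.4 CPM, *kdrl* at 4.65, 46.6 and 0 CPM and *cdh5* at 8.38, 13 and 0 CPM. Biliary genes, 9 of 16, summed to 1512 to 2134 CPM, most of it *anxa4* and *abcb11b*. The bile salt pump of *abcb11b* is found in hepatocytes, so the sum cannot be read as that of duct cells. *sox9b*, a defining duct gene, was at 8.63, 23 and 19.9 CPM. Of 23 erythrocyte genes 11 were in the table, with 731 to 1107 CPM in sum, led by *rhag* at 143, 170 and 322 CPM. Globin genes held 0.0514%, 0.0443% and 0.0760%, with *hbae3* at 163, 168 and 131 CPM and *hbbe1.1* at 131, 48.8 and 272 CPM, followed by *hbae1.1* and *hbbe1.3*.

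Genes of neighbouring tissues differed between pools. Skeletal muscle proteins held 0.268% in WT replicate 1, 0.0747% in WT replicate 2 and 0.0585% in WT replicate 3. *actc1b*, a muscle actin, was at 492, 177 and 187 CPM, *pvalb1*, a parvalbumin, at 370, 153 and 98.5 CPM, *ckmb*, a creatine kinase, at 175, 27.7 and 70.0 CPM and *mylz3*, a myosin light chain, at 200, 44.5 and 0.20 CPM. WT replicate 1 was thus the highest for each of these, but not for *acta2* of the same class, at 51.6, 3.90 and 62.1 CPM. The listed muscle markers, 16 of 26 in the table, summed to 3815 to 5154 CPM. Most of that was the enolase gene *eno3*, at 3043, 3723 and 3027 CPM, which was not highest in WT replicate 1. *aldoaa*, at 84.5, 108 and 378 CPM, was not either, while the other listed genes in the table were highest there. The epidermal list, 12 of 20, was also highest in WT replicate 1, with 1942, 910 and 1056 CPM, led by the keratin genes *krt91*, *krt92* and *cyt1* and by *icn*. The intestinal list, 12 of 27, summed to 1385, 1734 and 1259 CPM. *apoa4b.1*, at 1033, 1413 and 471 CPM, was most of the sum in WT replicates 1 and 2 but not in WT replicate 3, where *apoa4b.2*, at 38.8, 42.7 and 296 CPM, and *chia.2*, at 213, 136 and 177 CPM, followed it. Of the endocrine pancreas list 3 of 17 genes were in the table, among them *sst1.1*, a somatostatin, at 180, 14.8 and 70.2 CPM.

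Eye, nerve, kidney and cartilage genes appeared at very low levels in WT replicates 1 and 2 and at 0 in WT replicate 3. Zeros in that pool were common among all rare genes. Sorted by the mean over WT replicates 1 and 2, 45.2% of all genes from 10 to 100 CPM were at 0 there. Under 10 CPM the share was 73.8%. The 24 lens and retina proteins held 0.0170% and 0.0124% in the first pools. Photoreceptor genes such as *pde6ha*, at 63.1, 0 and 0 CPM, *gngt2b*, at 30.6, 0 and 0 CPM, and *rho*, at 30.2, 0 and 0 CPM, were found in WT replicate 1, and the lens crystallin *crygn2*, at 0, 18.3 and 0 CPM, in WT replicate 2. The neuron list, 6 of 15, summed to 83.2, 36.1 and 0 CPM, led by *sncb* and *elavl4*. The kidney list, 3 of 14, summed to 38.2, 47.0 and 0 CPM, with *pdzk1* highest, and *col9a2* was the 1 cartilage gene of 12, at 5.67, 2.84 and 0 CPM.

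Of the 6502 genes, 2714 were above 0 in all 3 pools, or 41.7%. They held 95.8%, 95.9% and 98.8% of the counts, and the genes outside this set the small remainder. A further 2764 were above 0 in 2 pools, 984 in 1 and 40 in none. Of those missing from a single pool, 2484 were missing from WT replicate 3, 166 from WT replicate 2 and 114 from WT replicate 1. In WT replicates 1 and 2 alone, 5198 genes, or 79.9%, were above 0. With at least 3 counts in place of 1, the number in all 3 pools was 2507, and with at least 10 it was 2382.

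The share of a class that was above 0 in all 3 pools differed widely around this 41.7%. It was 98.6% for cytosolic ribosomal proteins, 90.9% for coagulation, 86.7% for apolipoproteins and for nuclear oxidative phosphorylation, and 88.0% for pancreatic enzymes. It was 40.6% for transcription factors, 46.0% for the lysosome, 32.1% for mitochondrial ribosomal proteins and 28.6% for immune genes. The classes with the lower shares here also had members of lower level, with a median member at 14.6 CPM for transcription factors against 2503 CPM for ribosomal proteins. That level is a mean over all 3 pools, which zeros lower, so the measures are not independent. The order was not strict, with 45.5% at a median of 31.8 CPM for iron storage and 61.8% at 21.4 CPM for the proteasome class.

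Genes at 0 in WT replicate 3 were mostly, but not all, of low level in the other pools. Of its genes at 0, 836 had at least 100 counts in both other pools and 7 had at least 1000, against 48 and 0 for WT replicate 2 and 26 and 0 for WT replicate 1. For WT replicates 1 and 2 the other pools include WT replicate 3, whose own zeros held their numbers down. The most abundant gene at 0 in WT replicate 3, on average, was *nme2b.2*, a nucleoside diphosphate kinase gene, with 4844, 1076 and 0 counts. *id1*, which encodes an inhibitor of bHLH factors, had 2690, 2446 and 0 counts, although its relative *id3* had similar CPM in all 3 pools. *ebi3* had 732, 1941 and 0 counts, *atp5mea* of the ATP synthase 1272, 1342 and 0 counts and *ugt5b4*, a glucuronosyltransferase gene, 1366, 1257 and 0 counts.

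Zeros in WT replicate 3 became more frequent as the level in the other pools fell. Genes were sorted for this by their mean over WT replicates 1 and 2, since a 0 in WT replicate 3 lowers the mean over all pools. Of 163 genes of at least 1000 CPM none was at 0 in WT replicate 3. From 100 to 1000 CPM 10 of 492 genes (2.03%) were at 0 there, from 10 to 100 CPM 1370 of 3033 (45.2%) and under 10 CPM 2078 of 2814 (73.8%).

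By correlation across genes, WT replicates 1 and 2 were closer to each other than either was to WT replicate 3. Across all 6502 genes, Pearson's r of log2(CPM + 1) was 0.732 between WT replicates 1 and 2, 0.612 between WT replicates 1 and 3 and 0.609 between WT replicates 2 and 3. These are correlations across genes, which are not independent replicates, and no p-value is given. Among the 100 most abundant genes r was 0.941, 0.872 and 0.888. Of the 100 highest genes in each pool, 86, 84 and 87 were shared by these pairs and 79 by all 3, and of the 25 highest 19 were shared by all 3. Of the 1000 highest, 83.3% were shared by WT replicates 1 and 2, but 68% and 68.2% when WT replicate 3 was in the pair.

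**Figure D4:**
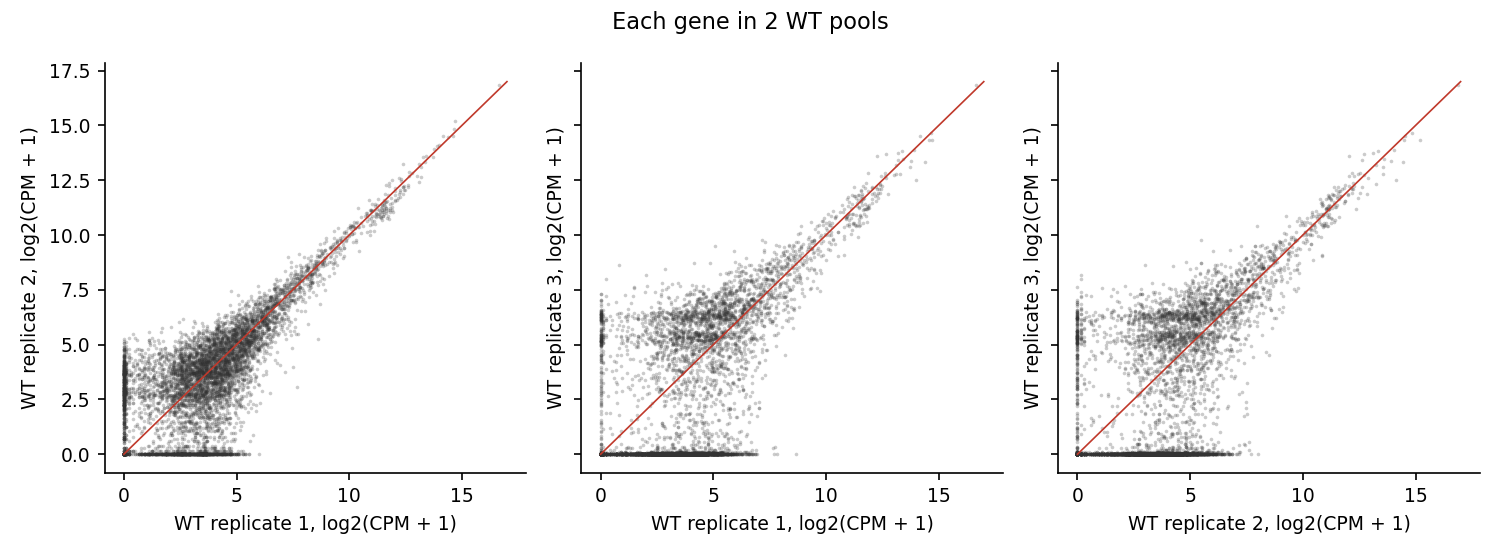
Level of each of 6502 genes, as log2(CPM + 1), in each pair of WT pools, with a line of equality. Points of abundant genes lie along the line in all 3 panels, the panel of WT replicates 1 and 2 has r = 0.732, and the panels with WT replicate 3 (r = 0.612 and 0.609) show many genes at 0 in that pool and horizontal bands of points at medium levels.

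Spread between pools was small for abundant genes. The median coefficient of variation was 0.217 for genes of at least 1000 CPM, 0.349 from 100 to 1000 CPM, 0.885 from 10 to 100 CPM and 1.32 below that. All 3 pools lay within 2-fold of each other for 90.3%, 49.4%, 11.1% and 1.81% of genes in these ranges. With genes sorted by their mean over WT replicates 1 and 2 alone, these ranges gave 99.4%, 89.8%, 57.4% and 24.1% of genes within 2-fold between those pools. The dispersion that edgeR estimated over all genes was 3.86, a biological coefficient of variation of 1.96, and it was 1.45 and 1.21 without WT replicate 3. For the 685 genes of at least 100 CPM the biological coefficient of variation was 0.485 with all pools and 0.282 without WT replicate 3.

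Among the 100 most abundant genes, 92 were within 2-fold over the 3 pools, and the coefficient of variation ran from 0.051 to 0.627. It was lowest for *pklr*, *tfa*, *rpl13*, *tpt1* and *leg1.1*, a secreted protein of zebrafish liver at 2787, 2746 and 2508 CPM. *rpl13*, a ribosomal protein gene often used as a reference, was at 3262, 2969 and 3287 CPM. It was highest for *igfbp1b*, *rbp4*, *eef2b*, *rpl29*, at 3485, 1693 and 1864 CPM, and *gc*, the vitamin D binding protein, at 3437, 5295 and 2351 CPM. In the first 3 of these WT replicate 3 was the pool outside the others, in *rpl29* WT replicate 1 and in *gc* WT replicate 2.

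Above the lowest counts, those of single genes in WT replicate 3 clustered at certain levels. This pattern was looked for after the bands in the pairwise plot were seen. The lowest and the highest counts were left out of the search, which began at a higher count and CPM in WT replicate 3 than in the other pools. For any pool it returned a second maximum, beyond a set distance from the first, and the lowest bin between them. That there were 2 maxima was thus fixed in advance. In WT replicates 1, 2 and 3, 279, 286 and 250 genes had 1 to 9 counts. In bins of 50 counts, the fullest of those searched held the 101 genes with 550 to 599 counts, or 36.6 to 39.9 CPM. A second maximum held the 74 genes with 1050 to 1099 counts, or 69.9 to 73.1 CPM, and between them the bin from 800 to 849 counts held 23 genes. In WT replicates 1 and 2, in bins of 10 counts, the fullest of those searched were from 50 to 59 counts, with 239 and 280 genes. These bins lay at 4.23 to 4.99 and 5.27 to 6.22 CPM. Second maxima, with 171 genes from 130 to 139 counts and 200 genes from 110 to 119 counts, were set off by minima of 152 and 153 genes. The minimum was at 22.8% of the fullest bin in WT replicate 3, against 63.6% and 54.6% in WT replicates 1 and 2. Bins of unlike width put these depths not quite on a par. In the middle range of abundance, levels in WT replicate 3 thus took preferred values. The fullest bin searched lay at 8.29 times the CPM of that in WT replicate 1 and at 6.66 times that in WT replicate 2. The CPM of those bins was below the range searched in WT replicate 3, so these ratios were partly set by the search. The cause of the preferred values was not tested.

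**Figure D5:**
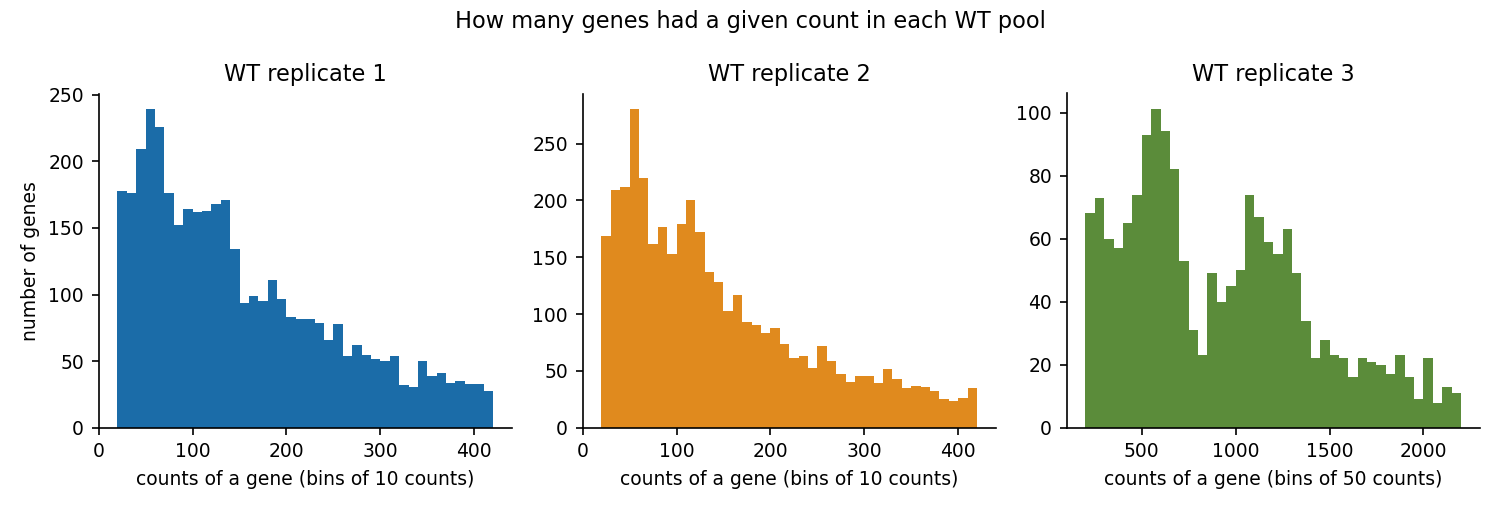
Number of genes (vertical axis) by the count of the gene (horizontal axis) in each WT pool, in bins of 10 counts for WT replicates 1 and 2 and of 50 counts for WT replicate 3. In WT replicate 3 maxima of 101 and 74 genes are separated by a minimum of 23 genes at 800 to 849 counts. The lowest and the highest counts are not drawn, and the range drawn begins at a higher count for WT replicate 3.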

How the data were processed

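3′ libraries of pooled livers were sequenced with single-end reads. The submitters' processing notes name FastQC 0.72, cutadapt 1.16, STAR 2.7.5b, featureCounts 1.6.3 and limma 3.40.6 with the danRer11 build. The authors deposited raw counts of reads per Entrez gene ID, with no normalization and with replicates kept apart. Rows without a gene ID held 13.6%, 12.5% and 9.82% of counts in WT replicates 1, 2 and 3 and were left out of the CPM totals. All sample columns matched a label, and the cr*keap1a/b* columns were used only to examine the filter on low values. Symbols came from a RefSeq gene table of another assembly, used for names only, so no coordinates are given.

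CPM, ranks, class shares, coefficients of variation and correlations were computed with pandas 2.3.3 using a pseudocount of 1 CPM on the log2 scale. Dispersion was estimated with edgeR 4.0.16 (R 4.3.3), and the step was tested on simulated counts. The simulated dispersions were below that estimated over all genes, and no simulated pool was set apart by zeros. The test therefore does not cover that estimate. Classes were assigned by patterns of gene symbols, and marker lists were typed from general knowledge. After values were seen, *apool*, *rbp3*, *rbp4l*, *ormdl1* and *ormdl2* were moved out of classes that their symbols matched by accident. The genes named were the 25 highest, up to 4 highest of each class and list, listed liver transcription factors and Nrf2 pathway genes, the 5 highest and 5 lowest coefficients of variation of the top 100, and the 5 highest genes at 0 in 1 pool. Further genes of a class or list, such as *hamp*, *ttr*, *cp*, *pck1*, *uox* and *apoeb*, were named after their values were seen. The classes, lists and alternatives were chosen with earlier results of these data known. Some genes that the rule for named genes selects are not reported here, in the text or in the plot of the most abundant genes.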

Additional observations from a re-analysis of the deposited data

Results flagged for a closer look

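Rows without a gene ID are data outside the values described above, and they held counts far above the limit of 3 counts. They numbered 135 and held 13.6% of counts in WT replicate 1, 12.5% in WT replicate 2 and 9.82% in WT replicate 3. A single row made up most of this, with 12.5%, 11.6% and 8.92% of all counts. On the same total, *apoa1b* held 8.96%, 10.5% and 10.6%, so that this row was above *apoa1b* in WT replicates 1 and 2 and below it in WT replicate 3. The row's identity is not given in the sources used here.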

How the results depend on the processing

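The number of genes above 0 in all pools used was 2714, and leaving out 1 pool gave between 2828 and 5198, the latter without WT replicate 3. Taking the total of all rows in place of rows with an ID lowered the 10 most abundant genes from 28.6% to 25.1% of counts, the 100 most abundant from 65.3% to 57.5%, apolipoproteins from 14.8% to 13%, other secreted plasma proteins to 6.23%, mitochondrially encoded genes to 5.77% and amino acid metabolism to 5.44%, by construction. Of the 25 highest genes, at least 23 were kept under every scaling, average and left-out pool tried. Of the values for the 8 largest classes, 54 of 58 moved by less than 1 SD, and of those for the other classes and the unclassified genes 143 of 160. The SD was that of the same 3 pools, so leaving out a pool or taking the median could not move a value that far. Many of these outcomes were thus fixed in advance, and the counts do not measure stability. Correlations depended on the handling of low values. For WT replicates 1 and 2 (0.732) r was 0.566 with a pseudocount of 0.1 CPM, 0.851 with 5 CPM, 0.808 over genes above 0 in both and 0.827 over genes of at least 10 CPM, and Spearman's rho was 0.660. For WT replicates 1 and 3 (0.612) these were 0.500, 0.713, 0.644, 0.449 and 0.519, and for WT replicates 2 and 3 (0.609) 0.501, 0.710, 0.630, 0.435 and 0.527. The median coefficient of variation of genes of at least 1000 CPM was 0.239 with TMM scaling, against 0.217, and ran from 0.136 to 0.204 when a pool was left out. For genes of at least 100 CPM it was 0.299 and ran from 0.172 to 0.313, lowest without WT replicate 3. With a pool left out the coefficient is taken over 2 pools, where its median tends to run lower than over 3. Such values are therefore not on a par with those of all pools. Below 100 CPM, the zeros of WT replicate 3 limit what can be read from single genes. No paired analysis was possible because a single group was described.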

Other observations

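Genes used as references in expression studies were unequal in spread. Of 13 listed, 11 were in the table and 8 were above 0 in all 3 pools. *rpl13* and *actb2* were closest between pools, the latter at 1204, 1081 and 1109 CPM, and *sdha* was at 89.6, 106 and 116 CPM. In WT replicate 3 *eef1a1l1* was above its mean and *gapdh* below it, at 14445 and 6979 CPM against means of 11763 and 9649 CPM. With TMM scaling, by a factor of 1.21 in that pool, both would be lower there, so the higher *eef1a1l1* value depends on the scaling. *tbp*, at 8.21, 12.6 and 0 CPM, *tuba1a*, at 0, 11.6 and 18.6 CPM, and *polr2d*, at 1.1, 17.8 and 75.3 CPM, were low and uneven.

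The unclassified genes, 4536 in number, held 11.8%, 12.1% and 14.1% of counts, and 2 of them were among the 100 most abundant. *dio3b*, a deiodinase that inactivates thyroid hormone, was among these, at 1869, 3124 and 1786 CPM. *afp4*, which ranked below the 100 most abundant, was at 1192, 1547 and 1854 CPM.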
